A study of Mus musculus with 9 samples.

Results

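The genes of the mouse major histocompatibility complex (MHC, called H2) and of antigen presentation were described in whole eyes of 3 inbred strains. A gene was included if its symbol began with H2- or was B2m, Tap1, Tap2, Tapbp, Psmb8, Psmb9, Psmb10, Cd74 or Ciita. This took in 27 of the 13089 genes in the tables, of which 19 carry the H2- prefix and 8 are named symbols. Ciita was not analysed here. The genes fell into 2 classical class I genes (H2-K1 and H2-D1), 9 class Ib genes, 7 class II genes, 7 genes of class I loading, and H2-Ke2 and H2-Ke6. The last 2 lie in the H2 region and carry the prefix but encode a prefoldin subunit and a steroid dehydrogenase, so 25 genes serve antigen presentation. All of these except B2m, Psmb10 and Cd74 lie on chromosome 17.

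Class I molecules pair a heavy chain with beta-2 microglobulin and show peptides from inside the cell to CD8 T cells. Proteasomes make the peptides, the TAP transporter carries them into the endoplasmic reticulum, and tapasin helps load them. Class II molecules pair an alpha with a beta chain and show peptides from endosomes to CD4 T cells. They assemble on the invariant chain Cd74, which H2-DM then helps to exchange for peptide, and they are made mainly by dendritic cells, macrophages and B cells. In the eye, the cornea, iris, ciliary body and choroid hold such cells, and the organ is known for restrained immune responses.

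Each library was made from pooled poly(A) RNA of whole eyes of 5 female mice aged 4 weeks, with 3 libraries from A/J, 3 from BALB/c and 3 from C57BL/6J mice. No treatment or engineered allele is named in the labels, and it is not stated if each library of a strain had its own pool of mice. What the p-values measure is the scatter among libraries, some or all of which may be technical. As background, the strains differ in H2 haplotype. A/J carries the recombinant haplotype a, with k alleles at H2-K and the class II genes and d alleles at the D end. BALB/c carries haplotype d, and C57BL/6J carries haplotype b. Haplotype b has a deletion in the promoter of H2-Ea and makes no E alpha chain. The submitters' processing notes name the mouse build mm9, which is C57BL/6J sequence. Reads from k and d alleles were thus placed by their match to b alleles, and how many were lost or misplaced was not tested.

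Values are RPKM, in which reads are divided by transcript length and by the mapped reads of the library, and the depth of the libraries is unknown. Differences were tested on log2(scaled RPKM + 0.5), so that log2 changes of low genes are understated. In bulk samples, fewer cells of a type and less RNA per cell cannot be told apart. The tables list genes whose highest strain mean was at least 0.997 RPKM, so a gene listed with a low mean in a strain had to be higher in another. This held for 9 of the 27 genes (H2-DMb1, H2-Ea, H2-Q2, H2-Q6, H2-Q8, H2-Q10, H2-T10, H2-T22 and H2-T24) and for 6.29% of all genes, with a strain mean under 1 RPKM. H2-Q8 reached 1 RPKM in fewer than 3 libraries and was not tested, which left 26 genes. Some libraries stood apart. The sum of RPKM times transcript length came to 117.6% of the total that RPKM gives in C57BL/6J 3, against 99.55% to 102% in the other 8. Without A/J 3, calls over all genes in A/J against C57BL/6J numbered 3659, against 348 with it.

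Class I genes resemble each other, which matters for a measurement that places short reads. The sequences shown next are 60-base stretches of the coding sequence where the class I genes are most and least alike, taken from GENCODE M21 transcripts of the GRCm38 C57BL/6J reference. Capitals mark bases that differ from H2-K1 at the aligned position. The most alike stretch, bases 658 to 717 of the H2-K1 coding sequence, encodes part of the alpha 3 domain, which binds beta-2 microglobulin and CD8.
H2-K1: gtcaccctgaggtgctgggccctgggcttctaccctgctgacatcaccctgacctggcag
H2-D1: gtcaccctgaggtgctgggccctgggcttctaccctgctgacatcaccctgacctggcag
H2-Q2: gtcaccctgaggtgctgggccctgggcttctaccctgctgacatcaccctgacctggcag
H2-Q6: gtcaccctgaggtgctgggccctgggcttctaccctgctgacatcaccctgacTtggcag
H2-Q10: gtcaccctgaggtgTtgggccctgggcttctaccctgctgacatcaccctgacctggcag
H2-T10: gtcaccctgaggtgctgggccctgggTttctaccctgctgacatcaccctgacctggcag
H2-T22: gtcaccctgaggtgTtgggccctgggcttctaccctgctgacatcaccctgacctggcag
H2-T23: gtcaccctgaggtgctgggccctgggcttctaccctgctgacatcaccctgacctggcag
H2-D1, H2-Q2 and H2-T23 were identical to H2-K1 over these 60 bases, and H2-Q6, H2-Q10, H2-T10 and H2-T22 differed at 1 base each. H2-M3 and H2-T24 also entered the choice of both stretches but are not shown. In this one H2-T24 was identical to H2-K1 and H2-M3 differed at 3 bases. The least alike stretch, bases 548 to 607 of the H2-K1 coding sequence, encodes the end of the alpha 2 domain, a wall of the peptide groove.
H2-K1: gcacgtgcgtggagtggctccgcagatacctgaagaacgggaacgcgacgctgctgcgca
H2-D1: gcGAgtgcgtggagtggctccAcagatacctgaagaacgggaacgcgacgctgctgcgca
H2-Q2: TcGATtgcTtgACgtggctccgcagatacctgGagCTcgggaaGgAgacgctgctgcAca
H2-Q6: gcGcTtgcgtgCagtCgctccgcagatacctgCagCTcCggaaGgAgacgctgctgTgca
H2-Q10: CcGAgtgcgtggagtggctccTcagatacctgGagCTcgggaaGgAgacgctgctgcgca
H2-T10: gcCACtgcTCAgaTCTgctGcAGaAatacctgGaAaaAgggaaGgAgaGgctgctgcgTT
H2-T22: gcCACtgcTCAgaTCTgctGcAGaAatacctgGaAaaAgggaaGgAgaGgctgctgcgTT
H2-T23: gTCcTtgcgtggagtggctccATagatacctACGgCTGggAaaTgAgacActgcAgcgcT
Here H2-D1 differed from H2-K1 at 3 bases, H2-Q10 at 9, H2-Q6 at 11, H2-Q2 at 13 and H2-T23 at 17. H2-T10 and H2-T22 each differed at 21 bases and had the same letters as each other. Of the genes not shown, H2-M3 differed at 20 bases and H2-T24 at 32. Over the whole coding sequence, H2-T10 and H2-T22 were 96.9% identical and H2-K1 and H2-D1 91.4%.

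The share of each gene's 31-base words that also occur in another annotated gene is another measure of likeness. It was 61.5% for H2-T10, 63.3% for H2-T22, 51.8% for H2-Q6 and 49% for H2-T23. The classical genes had 23.3% (H2-K1) and 27.7% (H2-D1), and Tapbp had 23.9%. Among class II genes it was 37.6% for H2-DMb1, all with its neighbour H2-DMb2, and at most 1.74% for the other 6. The authors' handling of reads with several matches is not given in the sources used here. Levels of class Ib genes, H2-K1, H2-D1, H2-DMb1 and Tapbp are therefore uncertain, and those of the class II chains are less touched by this sharing. The measure compares genes of the reference with each other. It does not cover how well reads from k and d alleles, also of the class II chains, match that reference.

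**Figure D1:**
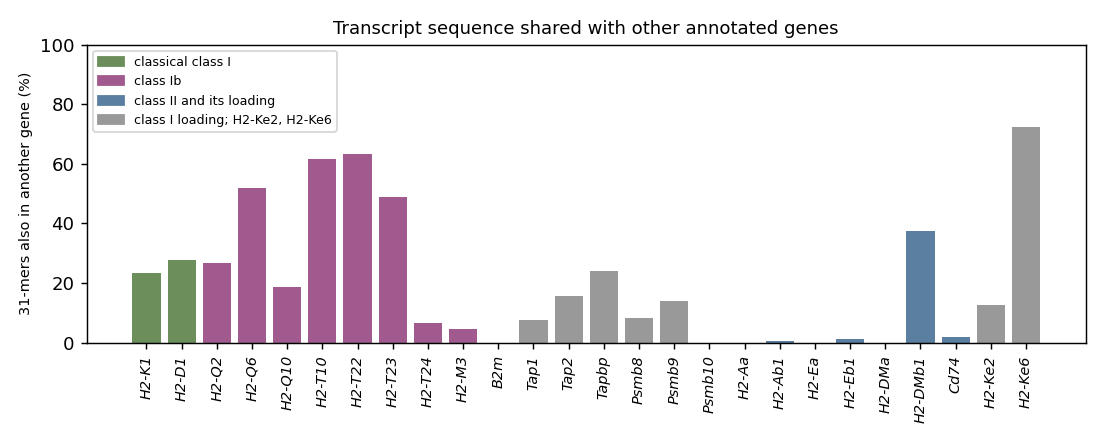
Percent of the 31-base words of each gene's transcript (vertical axis) that also occur in another annotated gene, for 26 genes grouped by class. H2-Ke6 has the tallest bar at 72.2%, H2-T10, H2-T22, H2-Q6 and H2-T23 stand at 49% or above, and 6 of the 7 class II bars are at 1.74% or less.

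Counted over all classes, A/J eyes differed from C57BL/6J eyes in 12 of the 26 genes tested, against 2.69% of all 12920 genes tested. Of the 12, 5 were higher (background 1.08%) and 7 lower (background 1.62%). BALB/c eyes differed from C57BL/6J eyes in 11 genes (background 3.09%), 5 higher (background 1.93%) and 6 lower (background 1.15%). The 2 comparisons share the C57BL/6J libraries. A/J differed from BALB/c in 3 genes, all lower in A/J (background 2.48%, and 1.9% for lower alone). An F test over the 3 strains called 13 genes (background 4.47%). Without A/J 3 and C57BL/6J 3 the counts were 13, 14 and 15, with 5131, 1919 and 7742 calls over all genes. Leaving out 1 library moved the BALB/c count against C57BL/6J to 6 (without BALB/c 1) or 7 (without BALB/c 2, BALB/c 3 or C57BL/6J 1), and the A/J count against BALB/c to 8 (without A/J 3) or 5 (without C57BL/6J 3). All these counts hold genes that are in the tables only through a strain where they are high. Among the 18 genes with a mean of at least 1 RPKM in every strain, 5 were called in A/J against C57BL/6J, where 1.97% of all such genes were. The counts were 5 in BALB/c against C57BL/6J (background 2.36%) and 2 in A/J against BALB/c (background 1.88%), and every one of them was lower in the strain named first.

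**Figure D2:**
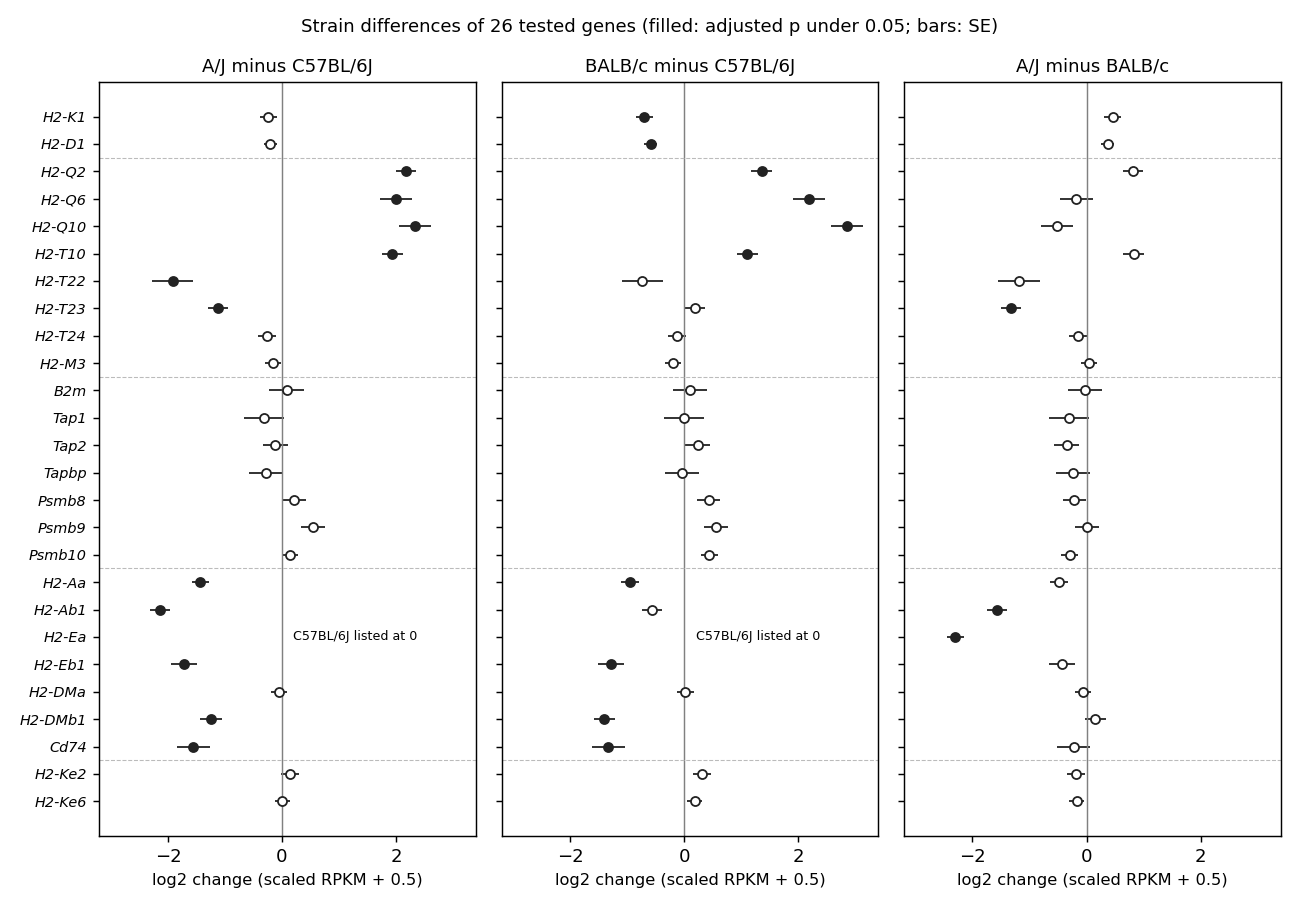
Log2 change of scaled RPKM + 0.5 (horizontal axis) for each of the 26 tested genes (rows) in A/J against C57BL/6J, BALB/c against C57BL/6J, and A/J against BALB/c. Filled points have an adjusted p under 0.05, bars are SE from limma, and dashed lines part classical class I, class Ib, class I loading, class II and the 2 genes that serve no antigen presentation. H2-Ea has no point against C57BL/6J, where it is listed at 0. Class I loading genes have no filled point, and all class II genes but H2-Ea and H2-DMa lie left of 0 in the first panel with filled points.

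The summed class II chains were lowest in A/J and highest in C57BL/6J, while H2-Ea alone was highest in BALB/c and listed at 0 in C57BL/6J. Summed over H2-Aa, H2-Ab1, H2-Ea and H2-Eb1, the level was 13.3, 15.7 and 13.9 RPKM in the A/J libraries, 30.5, 26.3 and 35.9 in BALB/c, against 49.97, 43.7 and 60.9 in C57BL/6J. The 3 strains did not overlap. Of the 7 class II genes, 1 was higher (background 1.08%) and 5 lower (background 1.62%) in A/J than in C57BL/6J, and 1 was higher (background 1.93%) and 4 lower (background 1.15%) in BALB/c. The one higher was H2-Ea, which is in the tables only through BALB/c. H2-DMb1, counted among those lower in each strain, is in the tables only through C57BL/6J. The median log2 change of the class was -1.43 in A/J and -0.95 in BALB/c, beside -0.01 over all genes in each comparison.

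The alpha and beta chains of the A molecule (I-A) moved unequally. H2-Aa, the alpha chain, had 6.54, 6.60 and 6.10 RPKM in A/J, 9.07, 7.03 and 10.4 in BALB/c, against 18.7, 17.5 and 23.04 in C57BL/6J. All C57BL/6J libraries were above all others, and A/J lay just under BALB/c with no overlap. The mean was 3.07-fold lower in A/J than in C57BL/6J, a log2 change of -1.43 ± 0.15 (SE; limma, adjusted p = 0.000922). It was 2.24-fold lower in BALB/c than in C57BL/6J, a log2 change of -0.95 ± 0.15 (SE; limma, adjusted p = 0.00931). Between A/J and BALB/c the log2 change was -0.48 (95% interval -0.82 to -0.14; limma, adjusted p = 0.153).

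H2-Ab1, the beta chain of the same molecule, had 3.13, 3.86 and 4.13 RPKM in A/J, 10.2, 10.04 and 14.3 in BALB/c, against 18.9, 15.4 and 24.6 in C57BL/6J. The A/J libraries were far below the rest, and the highest BALB/c library came close to the lowest C57BL/6J library. The mean was 5.295-fold lower in A/J than in C57BL/6J, a log2 change of -2.14 ± 0.18 (SE; limma, adjusted p = 0.0003101). It was 3.11-fold lower in A/J than it was in BALB/c, a log2 change of -1.57 ± 0.18 (SE; limma, adjusted p = 0.00247). Without A/J 1 and A/J 2 the log2 change was -1.47 (limma, adjusted p = 0.0867), with the 1 A/J library left assumed to vary like the other strains. BALB/c against C57BL/6J was not called, with a log2 change of -0.56 (95% interval -0.97 to -0.15; limma, adjusted p = 0.178). The ratio of H2-Aa to H2-Ab1 was 2.09, 1.71 and 1.48 in A/J, 0.886, 0.7002 and 0.728 in BALB/c, against 0.985, 1.14 and 0.938 in C57BL/6J. Alpha exceeded beta in every A/J library and was below it in every BALB/c library, and the 3 strains did not overlap. The part of allele mismatch to the reference in these levels and ratios was not tested.

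The E molecule (I-E) differed between strains in both of its chains. H2-Ea, the alpha chain, had 0.82, 0.80 and 1.35 RPKM in A/J and 6.77, 6.09 and 6.32 RPKM in BALB/c, and every C57BL/6J library listed it at 0. No fold against C57BL/6J is given for that reason. Every BALB/c library was several times above every A/J library, and the mean was 6.46-fold lower in A/J than it was in BALB/c, a log2 change of -2.30 ± 0.15 (SE; limma, adjusted p = 0.000132). With a mean under 1 RPKM in A/J, H2-Ea is in the tables only through BALB/c, and had to be higher there. This limit also holds for its ratio to H2-Eb1. H2-Eb1, the beta chain, had 2.77, 4.41 and 2.33 RPKM in A/J, 4.42, 3.16 and 4.97 in BALB/c, against 12.4, 10.8 and 13.3 in C57BL/6J. C57BL/6J eyes, where H2-Ea was listed at 0, had the highest level of its partner, while A/J and BALB/c overlapped. The log2 change against C57BL/6J was -1.72 ± 0.23 (SE; limma, adjusted p = 0.003695) in A/J. It was -1.28 ± 0.23 (SE; limma, adjusted p = 0.0162) in BALB/c, a call lost without BALB/c 1 (adjusted p = 0.0641), BALB/c 2 (0.0836) or C57BL/6J 1 (0.0615). The ratio of H2-Ea to H2-Eb1 was 0.296, 0.181 and 0.579 in A/J and 1.53, 1.93 and 1.27 in BALB/c. The alpha chain was thus the lower of the pair in A/J and the higher in BALB/c. For these chains too, the part of allele mismatch was not tested.

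Cd74 encodes the invariant chain, which holds class II molecules until they reach the endosome. It had 19.7, 21.7 and 19.3 RPKM in A/J, 22.5, 21.7 and 23.7 in BALB/c, against 58.1, 39.95 and 119.5 in C57BL/6J. A/J and BALB/c were close together and tight, and the C57BL/6J libraries were all higher and spread widely, with C57BL/6J 3 the highest. The log2 change was -1.56 ± 0.29 (SE; limma, adjusted p = 0.0227) in A/J against C57BL/6J and -1.33 ± 0.29 (SE; limma, adjusted p = 0.0439) in BALB/c against C57BL/6J. Neither call held without each of several libraries. The first was lost without BALB/c 1 (adjusted p = 0.0511), BALB/c 2 (0.0508), BALB/c 3 (0.0507), C57BL/6J 1 (0.0591), A/J 1 (0.101) or A/J 2 (0.0728). The second was lost without BALB/c 1 (adjusted p = 0.162), BALB/c 2 (0.174), BALB/c 3 (0.163), C57BL/6J 1 (0.0954), A/J 1 (0.0859) or A/J 2 (0.0722).

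H2-DMa and H2-DMb1 encode the alpha and a beta chain of H2-DM. H2-DMb1 had 0.65, 1.02 and 0.56 RPKM in A/J, 0.53, 0.55 and 0.65 in BALB/c, against 3.08, 2.51 and 2.23 in C57BL/6J. Every C57BL/6J library was more than 2 RPKM and no other library exceeded 1.02 RPKM. With a mean under 1 RPKM in A/J and in BALB/c, H2-DMb1 is in the tables only through C57BL/6J, and had to be higher there. The log2 change was -1.24 ± 0.19 (SE; limma, adjusted p = 0.00737) in A/J and -1.40 ± 0.19 (SE; limma, adjusted p = 0.00396) in BALB/c, and the A/J call was lost when those 2 strains were fitted alone (adjusted p = 0.0634). H2-DMa, in contrast, had 4.19, 3.57 and 3.37 RPKM in A/J, 3.32, 4.13 and 3.74 in BALB/c, against 4.21, 3.54 and 4.75 in C57BL/6J. All 3 strains overlapped, and the log2 change was -0.05 (95% interval -0.37 to 0.28; limma, adjusted p = 0.844) in A/J and 0.02 (95% interval -0.30 to 0.34; limma, adjusted p = 0.978) in BALB/c. The ratio of H2-DMa to H2-DMb1 was 6.45, 3.50 and 6.02 in A/J, 6.26, 7.51 and 5.75 in BALB/c, against 1.37, 1.41 and 2.13 in C57BL/6J, lowest in the C57BL/6J libraries. H2-DMb2, which shares sequence with H2-DMb1, was not analysed here.

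**Figure D3:**
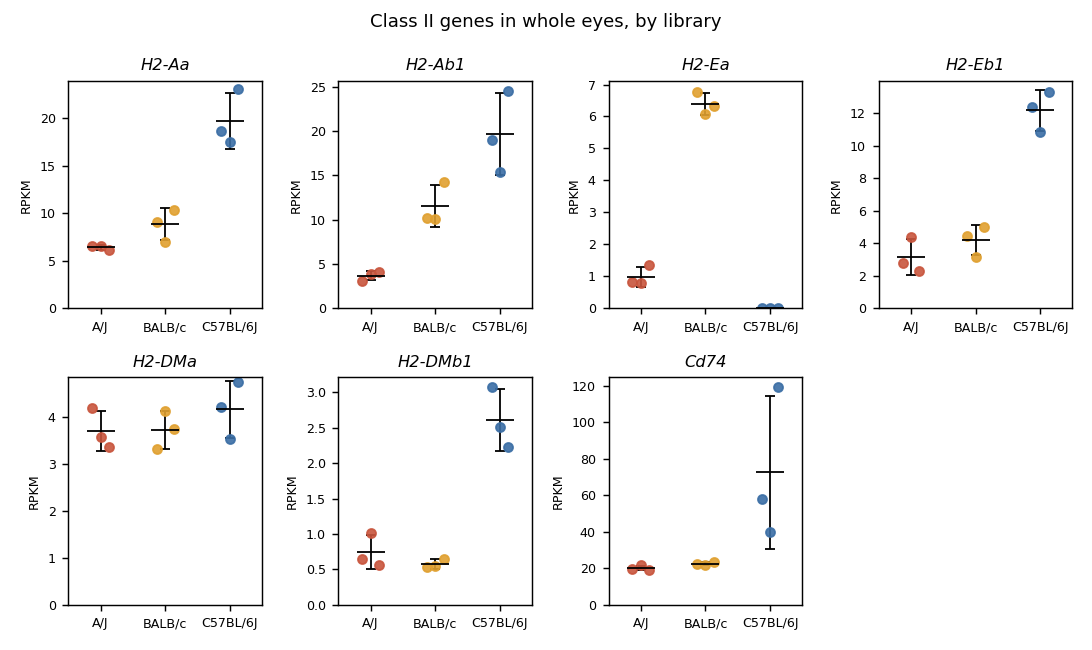
RPKM (vertical axis, from 0) of the 7 class II genes in each library of A/J, BALB/c and C57BL/6J. Points are libraries and black lines are the mean and SD over 3 libraries. C57BL/6J stands above both other strains in every panel except H2-DMa, where the strains overlap, and H2-Ea, where it is at 0.

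Cells that make class II were followed with a list of macrophage, microglia and dendritic cell markers, of which 22 of 29 names were listed (Adgre1 under its older symbol Emr1). Their summed level was 171 to 204 RPKM in A/J, 154 to 179 in BALB/c, against 226 to 269.5 in C57BL/6J. The sum was thus highest in C57BL/6J, as for the summed class II chains. A/J overlapped BALB/c in it, although not in the summed class II chains. Lyz2 was the largest part of the sum, with a mean of 71.7 RPKM in C57BL/6J against 55.2 (A/J) and 45.1 (BALB/c). Not every marker had its highest mean in C57BL/6J. Aif1, Cd14, Cd53 and Mrc1 had it in A/J, and Csf1r and Cx3cr1 had it in BALB/c. Only C1qb, a complement subunit made by macrophages and microglia, was called against C57BL/6J (background 2.69% in A/J and 3.09% in BALB/c). None was called in A/J against BALB/c (background 2.48%). These counts are near the background. The unadjusted limma p was under 0.05 for 5 of the 22 in A/J and 8 in BALB/c against C57BL/6J, and for 5 in A/J against BALB/c. The share of all genes with such an unadjusted p is not given, here or for the other lists. The median log2 change of the 22 against C57BL/6J was -0.16 in A/J and -0.40 in BALB/c, beside -0.01 over all genes in each. C1qb had a log2 change of -0.72 ± 0.14 (SE; limma, adjusted p = 0.0228) in A/J and -0.71 ± 0.14 (SE; limma, adjusted p = 0.0227) in BALB/c against C57BL/6J. It had 16.03, 13.2 and 16.8 RPKM in A/J, 15.9, 13.1 and 15.1 in BALB/c, against 25.9, 27.8 and 29.02 in C57BL/6J, with the C57BL/6J libraries highest. Itgax, Ptprc, Cd80, Cd86, Flt3 and Cd207 were not analysed here, and of 14 markers of B, T and NK cells none was in the tables. The part of these cells in the class II results was not tested.

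Of 14 corneal and conjunctival markers, 13 were listed, and their sum was 4885 to 6061 RPKM in A/J, 5263 to 6355 in BALB/c, against 4385 to 7226 in C57BL/6J, with overlap throughout. The median log2 change of the 13 against C57BL/6J was -0.31 in A/J and 0.000958 in BALB/c. The unadjusted limma p was under 0.05 for 6 in A/J and 9 in BALB/c, counted in both directions together. By adjusted p 3 were called in each comparison, all lower (background 1.62% in A/J and 1.15% in BALB/c). Krt13, Krt15 and Krt4, keratins of the ocular surface, were lower in both strains than in C57BL/6J. Krt13 and Krt15 were also lower in A/J against BALB/c (background 1.9%). Krt15 had 46.2, 56.3 and 48.6 RPKM in A/J, 155.8, 120.2 and 133.9 in BALB/c, against 483.6, 311.1 and 953.6 in C57BL/6J. Krt13 had 33.7, 30.9 and 30.99 RPKM in A/J, 62, 67.8 and 72.7 in BALB/c, against 231, 151 and 335.7 in C57BL/6J. Krt4 had 9.01, 8.87 and 5.39 RPKM in A/J, 12.1, 11.03 and 10.8 in BALB/c, against 56.2, 32.1 and 94.1 in C57BL/6J. In each of these keratins A/J was lowest and C57BL/6J highest with no overlap, and C57BL/6J 3 was the highest library, as for Cd74. This was the order of the summed class II chains, but not of every marker in the list. By means, Krt19, Krt8, Cldn4 and Muc4 also had it, and Krt5, Krt12, Krt14, Krt18, Cdh1 and Aldh3a1 did not. The log2 change of Krt4 was -2.07 ± 0.32 (SE; limma, adjusted p = 0.00858) in BALB/c against C57BL/6J. The log2 change of Krt13 was -2.71 ± 0.22 (SE; limma, adjusted p = 0.000238) in A/J and -1.57 ± 0.22 (SE; limma, adjusted p = 0.00471) in BALB/c against C57BL/6J. Krt12, the keratin of corneal epithelium proper, had 2935, 3015 and 2227 RPKM in A/J, 2241, 2550 and 2709 in BALB/c, against 2425, 1632 and 1727 in C57BL/6J, overlapped between strains and was not called. Of 11 endothelial markers 10 were listed, with sums of 74.7 to 80.8 RPKM in A/J, 90.9 to 96.6 in BALB/c, against 107.5 to 124.5 in C57BL/6J. Only Vwf, von Willebrand factor, was called among them, in A/J against BALB/c, with 0.89, 0.57 and 1.25 RPKM in A/J, 1.73, 2.34 and 2.12 in BALB/c, 1.80, 2.49 and 2.44 in C57BL/6J and a log2 change of -0.95 ± 0.20 (SE; limma, adjusted p = 0.0484). Against C57BL/6J no endothelial marker was called by limma (background 2.69% in A/J and 3.09% in BALB/c). The unadjusted limma p was under 0.05 for 4 in A/J and 0 in BALB/c. The part of these tissues in the class II results was not tested.

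The promoters of 3 class II genes that were lower in both strains than in C57BL/6J are shown for the elements that class II genes are known to share, the X and Y boxes. They are the C57BL/6J reference from RefSeq (GRCm38.p6), from 250 bases before to 50 after the annotated start, in the direction of transcription. Capitals mark matches, on either strand, to CCAAT (the Y box core) and the longest run that H2-Eb1 and H2-DMb1 share, which lies where their X box does, and no matches overlap.
H2-Aa, chr17:34287774-34288073 (- strand): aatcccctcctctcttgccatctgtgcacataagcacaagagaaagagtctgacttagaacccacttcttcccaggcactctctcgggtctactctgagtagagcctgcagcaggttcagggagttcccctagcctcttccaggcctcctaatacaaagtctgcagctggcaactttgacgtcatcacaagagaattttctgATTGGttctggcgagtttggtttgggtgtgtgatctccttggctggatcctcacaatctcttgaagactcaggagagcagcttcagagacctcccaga
H2-Eb1, chr17:34305617-34305916 (+ strand): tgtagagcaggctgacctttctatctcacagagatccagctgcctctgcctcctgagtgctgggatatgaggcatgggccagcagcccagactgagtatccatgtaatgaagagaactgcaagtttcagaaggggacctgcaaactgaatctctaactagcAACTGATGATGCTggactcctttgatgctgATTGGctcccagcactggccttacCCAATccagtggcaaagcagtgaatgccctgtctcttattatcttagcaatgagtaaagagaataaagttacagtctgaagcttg
H2-DMb1, chr17:34152941-34153240 (+ strand): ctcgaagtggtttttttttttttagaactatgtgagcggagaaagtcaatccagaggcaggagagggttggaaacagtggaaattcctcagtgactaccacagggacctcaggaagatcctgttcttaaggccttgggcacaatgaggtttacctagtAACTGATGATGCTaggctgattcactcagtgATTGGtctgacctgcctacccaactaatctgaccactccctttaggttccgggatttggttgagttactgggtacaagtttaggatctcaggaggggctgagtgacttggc
All 3 held CCAAT, as did 37.4% of the 32851 promoters of the same length. The shared run has 13 bases, starts at -89 from the start of H2-Eb1 and at -92 from that of H2-DMb1, and was in 3 of all promoters (0.00913%). H2-Aa did not hold those letters in this window. The sequences of the k and d alleles were not used here, and H2-Ab1 and H2-Ea had no entry in the table. The promoter of Cd74, which was also called lower in both strains, is not shown here.

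The classical class I genes followed another order of strains, with BALB/c lowest. H2-K1 had 47.96, 53.6 and 52.3 RPKM in A/J, 33.6, 35.9 and 36.6 in BALB/c, against 74.5, 50.3 and 74.9 in C57BL/6J. BALB/c lay below every library of the other strains, and A/J overlapped C57BL/6J through C57BL/6J 2. The log2 change was -0.70 ± 0.15 (SE; limma, adjusted p = 0.0374) in BALB/c against C57BL/6J, -0.24 (95% interval -0.58 to 0.09; limma, adjusted p = 0.357) in A/J against C57BL/6J and 0.46 (95% interval 0.13 to 0.79; limma, adjusted p = 0.159) in A/J against BALB/c. The BALB/c call was lost without BALB/c 1 (adjusted p = 0.172), BALB/c 2 (0.1496), BALB/c 3 (0.159), C57BL/6J 1 (0.116), C57BL/6J 3 (0.06501), A/J 1 (0.0794) or A/J 2 (0.0606). In limma fits it was also lost with a GC correction (adjusted p = 0.0569), with the replicate number as a block (0.0635), with both together (0.0764), and with the 2 strains fitted alone (0.0706).

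H2-D1 had 76.4, 83.5 and 75.98 RPKM in A/J, 58.04, 54.5 and 60.5 in BALB/c, against 100.8, 88.9 and 105.3 in C57BL/6J. The 3 strains did not overlap, with A/J between the others. A/J and BALB/c, which share the d allele at this gene, were apart by a log2 change of 0.37 (95% interval 0.12 to 0.63; limma, adjusted p = 0.1402), which was not called with all libraries and was called without A/J 3 (adjusted p = 0.0279). Against C57BL/6J the log2 change was -0.58 ± 0.11 (SE; limma, adjusted p = 0.0264) in BALB/c and -0.21 (95% interval -0.47 to 0.05; limma, adjusted p = 0.327) in A/J. The BALB/c call was lost without BALB/c 1 (adjusted p = 0.123), BALB/c 2 (0.161), BALB/c 3 (0.122), C57BL/6J 1 (0.0946), C57BL/6J 2 (0.0625) or A/J 1 (0.0653). In limma fits it was also lost with a GC correction (adjusted p = 0.0733), with the replicate number as a block (0.0579), and with both together (0.0793). The ratio of H2-K1 to H2-D1 varied little, with 0.628, 0.642 and 0.688 in A/J, 0.578, 0.658 and 0.605 in BALB/c, against 0.7396, 0.566 and 0.712 in C57BL/6J, and all strains overlapped. H2-L, a gene of the d haplotype at the D end that is close in sequence to H2-D, was not analysed here.

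Set against the classical class I genes, the class II chains stood lowest in A/J. The ratio of the summed class II chains to H2-K1 plus H2-D1 was 0.107, 0.114 and 0.109 in A/J, 0.333, 0.291 and 0.3697 in BALB/c, against 0.285, 0.314 and 0.338 in C57BL/6J. BALB/c and C57BL/6J overlapped in this ratio, and A/J was apart from both.

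The promoters of H2-K1 and H2-D1 carry the enhancer A of class I genes, a site known to bind NF-kappaB proteins. They are shown on the same terms, and capitals mark CCAAT on either strand and the longest run that H2-K1 and H2-D1 share. For H2-K1 the first of its RefSeq starts is shown.
H2-K1, chr17:34000298-34000597 (- strand): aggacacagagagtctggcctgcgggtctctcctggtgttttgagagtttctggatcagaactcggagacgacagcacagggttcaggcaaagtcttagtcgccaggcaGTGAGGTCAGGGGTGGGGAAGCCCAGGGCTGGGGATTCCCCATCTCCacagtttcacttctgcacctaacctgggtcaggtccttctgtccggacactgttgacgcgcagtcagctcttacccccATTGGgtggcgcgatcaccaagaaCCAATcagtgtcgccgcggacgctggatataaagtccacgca
H2-D1, chr17:35262844-35263143 (+ strand): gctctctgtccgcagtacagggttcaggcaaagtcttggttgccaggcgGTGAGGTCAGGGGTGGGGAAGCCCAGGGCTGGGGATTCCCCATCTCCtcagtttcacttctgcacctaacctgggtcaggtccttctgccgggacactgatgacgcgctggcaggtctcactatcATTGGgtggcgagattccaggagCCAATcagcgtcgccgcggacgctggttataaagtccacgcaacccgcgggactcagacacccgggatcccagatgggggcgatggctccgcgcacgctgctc
The shared run has 47 bases and holds the enhancer A site near its end. It was in 3 of the 32851 promoters (0.00913%), counting H2-D1 and both starts of H2-K1, so no other promoter in the table held it whole.

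Of the 9 class Ib genes, 8 were tested. In A/J 4 were higher (background 1.08%) and 2 lower (background 1.62%) than in C57BL/6J. In BALB/c 4 were higher (background 1.93%) and none lower (background 1.15%), and these 4 were also the only ones of the 8 with an unadjusted limma p under 0.05. Those higher were H2-T10, H2-Q10, H2-Q6 and H2-Q2 in each comparison, all with a C57BL/6J mean under 1 RPKM and so in the tables only through another strain. H2-T22, 1 of the 2 lower in A/J, had an A/J mean under 1 RPKM and is likewise in the tables only through other strains. Products of the Q and T regions include Qa-2 (Q region) and Qa-1 (T region).

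H2-Q10, known as a secreted class I molecule of liver, had 2.15, 1.54 and 4.20 RPKM in A/J, 3.23, 4.29 and 3.19 in BALB/c, against 0.05, 0.05 and 0.22 in C57BL/6J. H2-Q6, a gene of the Qa-2 group, had 3.01, 2.90 and 6.44 RPKM in A/J, 3.60, 5.16 and 4.03 in BALB/c, against 0.39, 0.70 and 0.89 in C57BL/6J. H2-Q2 had 1.93, 2.43 and 2.40 RPKM in A/J, 0.82, 1.24 and 1 in BALB/c, against 0, 0.21 and 0.18 in C57BL/6J, with C57BL/6J 1 listed at 0. In all 3 genes every A/J and BALB/c library was above every C57BL/6J library, and for H2-Q2 A/J was also above BALB/c. The log2 change of H2-Q10 was 2.33 ± 0.28 (SE; limma, adjusted p = 0.00222) in A/J and 2.85 ± 0.28 (SE; limma, adjusted p = 0.000674) in BALB/c. That of H2-Q6 was 2.00 ± 0.28 (SE; limma, adjusted p = 0.005504) in A/J and 2.18 ± 0.28 (SE; limma, adjusted p = 0.003504) in BALB/c. That of H2-Q2 was 2.17 ± 0.18 (SE; limma, adjusted p = 0.000267) in A/J and 1.36 ± 0.18 (SE; limma, adjusted p = 0.00379) in BALB/c. A/J 3 was the highest A/J library for H2-Q6 and H2-Q10, and without it H2-Q10 was lower in A/J against BALB/c (adjusted p = 0.0182, against 0.295 with it). H2-Q2 was just short of a call between A/J and BALB/c, with a log2 change of 0.82 (95% interval 0.41 to 1.22; limma, adjusted p = 0.0523). It was called without C57BL/6J 1 (adjusted p = 0.0395), C57BL/6J 3 (0.04296) or A/J 3 (0.0227).

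H2-Q8, another gene of the Qa-2 group, failed the filter. It had 0.92, 1.35 and 1.73 RPKM in A/J, 0.76, 0.89 and 0.91 in BALB/c, against 0.13, 0.13 and 0.39 in C57BL/6J, again with C57BL/6J lowest. With no filter its log2 change was 1.40 ± 0.19 in A/J (SE; limma, adjusted p = 0.00519) and 1.02 ± 0.19 in BALB/c (adjusted p = 0.0241). The sum of the 4 Q genes was 8.01, 8.22 and 14.8 RPKM in A/J, 8.41, 11.6 and 9.13 in BALB/c, against 0.570, 1.09 and 1.68 in C57BL/6J, so A/J and BALB/c overlapped and C57BL/6J was far below. All 4 are in the tables only through strains other than C57BL/6J. H2-Q6 shares 51.8% and H2-Q2 26.6% of its 31-base words with other annotated genes. The part of this sharing, and of reads from k and d alleles placed on a b reference, was not tested.

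H2-T10 and H2-T22, which are known to be bound by a subset of gamma delta T cells, ranked the strains in opposite order. H2-T10 had 2.55, 2.89 and 2.58 RPKM in A/J, 1.44, 1.05 and 1.21 in BALB/c, against 0.47, 0.14 and 0.54 in C57BL/6J. H2-T22 had 0.54, 0.48 and 0 RPKM in A/J, 1.02, 1.08 and 1.74 in BALB/c, against 1.93, 1.94 and 5.10 in C57BL/6J, with A/J 3 listed at 0. For each gene no strain overlapped another, and the order of strains for H2-T22 was the reverse of that for H2-T10. The mean of H2-T10 in C57BL/6J and that of H2-T22 in A/J were under 1 RPKM. Each gene is thus in the tables only through other strains, and had to be higher in another strain than in that one. The log2 change of H2-T10 was 1.94 ± 0.18 (SE; limma, adjusted p = 0.000508) in A/J and 1.11 ± 0.18 (SE; limma, adjusted p = 0.0119) in BALB/c against C57BL/6J. The BALB/c call was lost without BALB/c 1 (adjusted p = 0.0689) or BALB/c 3 (0.0656). A/J against BALB/c gave 0.83 (95% interval 0.41 to 1.25; limma, adjusted p = 0.0547), which was called without C57BL/6J 2 (adjusted p = 0.0212), C57BL/6J 3 (0.0352) or A/J 3 (0.0192). The log2 change of H2-T22 was -1.92 ± 0.36 (SE; limma, adjusted p = 0.0255) in A/J and -0.73 (95% interval -1.55 to 0.09; limma, adjusted p = 0.433) in BALB/c against C57BL/6J. The A/J call was lost without BALB/c 1 (adjusted p = 0.0519), BALB/c 2 (0.0541), C57BL/6J 2 (0.0519), A/J 1 (0.0585) or A/J 2 (0.0588). H2-T10 shares 56.6% of its 31-base words with H2-T22, and the part of this sharing in the result was not tested.

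H2-T23 encodes the heavy chain of Qa-1, which shows leader peptides of other class I molecules to NK cell receptors. It had 8.26, 9.52 and 9.80 RPKM in A/J, 21.5, 23.9 and 22.1 in BALB/c, against 19.99, 17.2 and 31.8 in C57BL/6J. All A/J libraries were below all others, and BALB/c lay within the C57BL/6J range. The mean was 2.502-fold lower in A/J than in C57BL/6J, a log2 change of -1.13 ± 0.18 (SE; limma, adjusted p = 0.00932), and 2.45-fold lower in A/J than it was in BALB/c, a log2 change of -1.32 ± 0.18 (SE; limma, adjusted p = 0.00528). BALB/c against C57BL/6J gave 0.19 (95% interval -0.20 to 0.59; limma, adjusted p = 0.736). The call against C57BL/6J was lost without A/J 1 (adjusted p = 0.0617), and without both A/J 1 and A/J 2, where 1 A/J library is left and assumed to vary like the other strains, the log2 change was -1.08 against C57BL/6J (0.189) and -1.27 against BALB/c (0.146). As background, A/J is typed Qa-1a, and BALB/c and C57BL/6J are typed Qa-1b. H2-T23 made up 36.7, 39.2 and 32.04 percent of the summed class Ib RPKM in A/J, 60.3, 59.1 and 58.9 percent in BALB/c, against 74.7, 70.3 and 72.7 percent in C57BL/6J, with no overlap. That sum holds H2-Q2, H2-Q6, H2-Q8, H2-Q10 and H2-T10, which are in the tables only through strains other than C57BL/6J. The share of H2-T23 in C57BL/6J is raised by this.

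H2-M3, which presents formylated peptides, and H2-T24 were not called. H2-M3 had 2.03, 2.26 and 2.72 RPKM in A/J, 2.23, 1.85 and 2.36 in BALB/c, against 2.76, 2.75 and 3.07 in C57BL/6J, with the 3 C57BL/6J libraries highest as deposited. After scaling A/J 3 (2.701) lay above C57BL/6J 1 (2.647) and C57BL/6J 3 (2.651). Its log2 change was -0.16 (95% interval -0.46 to 0.15; limma, adjusted p = 0.4801) in A/J and -0.20 (95% interval -0.50 to 0.11; limma, adjusted p = 0.609) in BALB/c. H2-T24 ranged over 0.72 to 1.12 RPKM in A/J, 0.95 to 1.08 in BALB/c, against 1.05 to 1.53 in C57BL/6J, with overlap, and its log2 change was -0.27 (95% interval -0.62 to 0.08; limma, adjusted p = 0.344) in A/J and -0.12 (95% interval -0.48 to 0.23; limma, adjusted p = 0.832) in BALB/c.

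**Figure D4:**
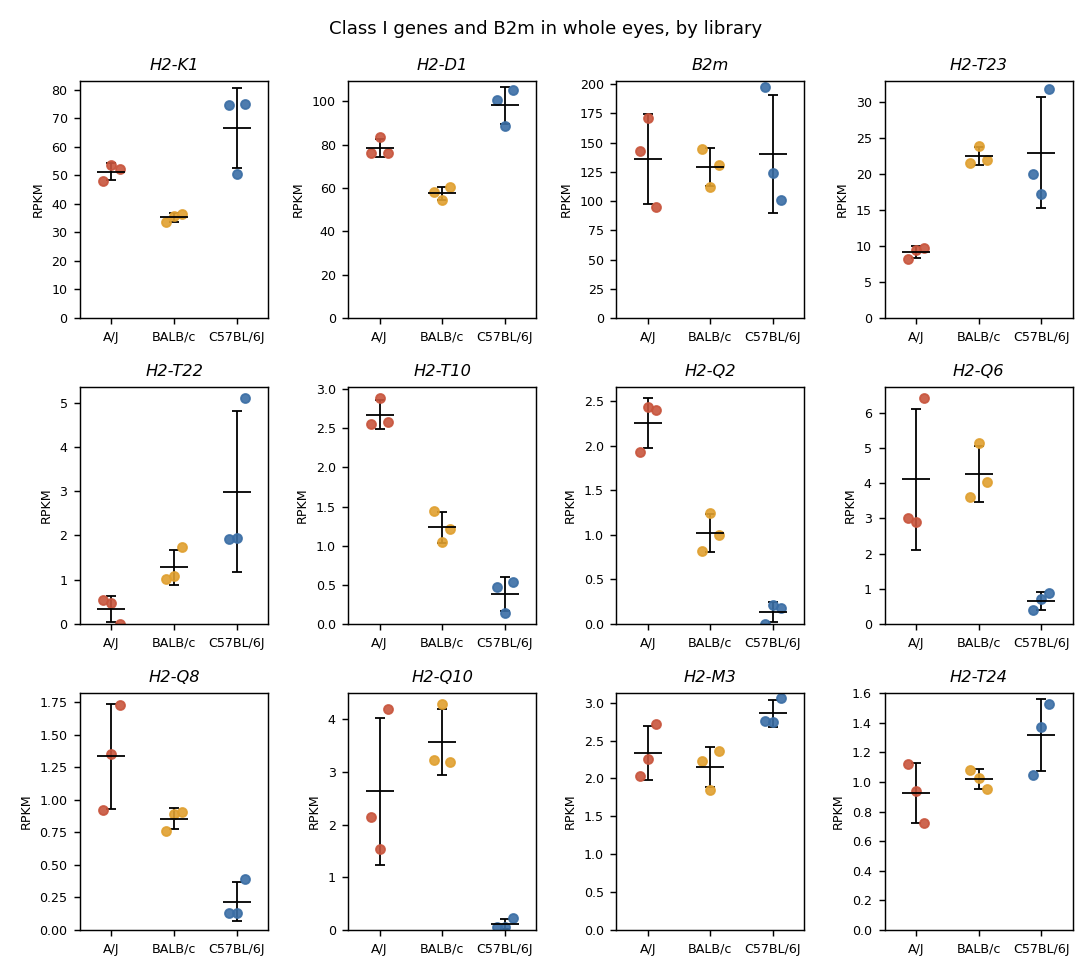
RPKM (vertical axis, from 0) of the classical class I genes, B2m and the 9 class Ib genes in each library of A/J, BALB/c and C57BL/6J. Points are libraries and black lines are the mean and SD over 3 libraries. The Q genes and H2-T10 are near the bottom in C57BL/6J, H2-T22 is lowest in A/J, and H2-T23 is lower in A/J than in the other strains.

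None of the 7 class I loading genes was called in any of the 3 comparisons, where the shares of all genes called were 2.69% (A/J against C57BL/6J), 3.09% (BALB/c against C57BL/6J) and 2.48% (A/J against BALB/c), so the count does not set these genes apart. By limma, the unadjusted p was under 0.05 for 1 of the 7 in A/J and 2 in BALB/c against C57BL/6J, and for 0 in A/J against BALB/c. B2m, the light chain of every class I molecule and the highest of all these genes (rank 285 of 13089 by mean RPKM), had 142.4, 171.1 and 95.1 RPKM in A/J, 144.6, 111.9 and 130.5 in BALB/c, against 197.3, 124.2 and 100.5 in C57BL/6J. The strains overlapped, and the libraries within A/J and within C57BL/6J spread nearly as widely as all 9. Its log2 change was 0.08 (95% interval -0.60 to 0.77; limma, adjusted p = 0.874) in A/J against C57BL/6J and 0.10 (95% interval -0.58 to 0.79; limma, adjusted p = 0.944) in BALB/c against C57BL/6J, wide intervals that span 0.

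The immunoproteasome subunits Psmb8, Psmb9 and Psmb10 cut proteins into peptides with ends that class I binds. Psmb9 had 12.3, 11.7 and 12.1 RPKM in A/J, 12.7, 9.29 and 12.7 in BALB/c, against 8.34, 6.10 and 12.8 in C57BL/6J, where C57BL/6J 1 and C57BL/6J 2 were below all A/J and BALB/c libraries. C57BL/6J 3 was the highest library as deposited, but after scaling it was at 11.06, below every A/J library (11.92 to 12.62). Its log2 change was 0.55 (95% interval 0.08 to 1.02; limma, adjusted p = 0.2402) in A/J and 0.55 (95% interval 0.08 to 1.02; limma, adjusted p = 0.272) in BALB/c against C57BL/6J. Without A/J 3 and C57BL/6J 3 it was called higher in A/J (adjusted p = 0.00652) and in BALB/c (0.00834). Psmb8 had 18.6, 19.1 and 15.5 RPKM in A/J, 19.1, 18.6 and 20.99 in BALB/c, against 19.9, 10.99 and 19.8 in C57BL/6J, with C57BL/6J 2 lowest. Psmb10 had 12.7, 13.8 and 14.4 RPKM in A/J, 15.03, 16.3 and 16.8 in BALB/c, against 15.7, 12.2 and 12.2 in C57BL/6J. C57BL/6J overlapped each other strain as deposited, but not BALB/c after scaling.

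Psmb5, which Psmb8 replaces in the immunoproteasome, did differ. It had 24.1, 22.6 and 26.9 RPKM in A/J, 34.3, 34.9 and 37.1 in BALB/c, against 58.9, 58.5 and 67.7 in C57BL/6J, with no overlap of strains. The log2 change was -1.20 ± 0.11 (SE; limma, adjusted p = 0.000466) in A/J against C57BL/6J, -0.61 ± 0.11 (SE; limma, adjusted p = 0.0199) in BALB/c against C57BL/6J and -0.59 ± 0.11 (SE; limma, adjusted p = 0.0275) in A/J against BALB/c. Its transcript shares 74% of its 31-base words with other annotated genes, so this level is uncertain.

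Of the peptide transporter subunits Tap1 and Tap2 and the loading factor Tapbp (tapasin), Tap1 and Tapbp were highest in C57BL/6J 3, also after scaling. Tap1 had 3.85, 3.70 and 6.02 RPKM in A/J, 4.59, 5.98 and 5.48 in BALB/c, against 3.99, 4.26 and 12.8 in C57BL/6J. Tapbp had 27.2, 26.2 and 34.3 RPKM in A/J, 27.4, 37.8 and 33.6 in BALB/c, against 25.6, 31.1 and 69.1 in C57BL/6J. In both genes C57BL/6J 3 stood far above the other C57BL/6J libraries (scaled Tapbp 59.7 against 24.59 and 30.99), and the strains overlapped. Tap2 had 6.54, 5.26 and 10.3 RPKM in A/J, 7.78, 8.86 and 9.72 in BALB/c, against 7.31, 7.64 and 10.4 in C57BL/6J, again overlapping, and after scaling its highest library was BALB/c 3. Without A/J 3, a call of Tap2 was gained in A/J against BALB/c, lower in A/J (adjusted p = 0.027, against 0.346 with it).

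Of 20 other genes of antigen processing, such as standard proteasome subunits, cathepsins and chaperones, 1 was higher (background 1.08%) and 1 lower (background 1.62%) in A/J than in C57BL/6J. Psmb5 alone was called in BALB/c against C57BL/6J (background 3.09%) and in A/J against BALB/c (background 2.48%). The one higher was Ctsl, the endosomal protease cathepsin L, which helps degrade the invariant chain. It had 589, 601.2 and 405.2 RPKM in A/J, 349.5, 306.3 and 332.2 in BALB/c, against 329.1, 238.2 and 268.6 in C57BL/6J, with every A/J library above the rest and a log2 change of 1.03 ± 0.19 (SE; limma, adjusted p = 0.0247). Its transcript shares 29.88% of its 31-base words with other annotated genes, so this level is uncertain too. Among 26 of 27 listed regulators of MHC genes and genes of interferon signalling, none was called by limma against C57BL/6J in A/J or in BALB/c, where 4 genes in each comparison had an unadjusted p under 0.05. Over all genes 2.69% were called in A/J and 3.09% in BALB/c, so 0 of 26 is near the background. Socs1, a feedback inhibitor of cytokine signalling, was called in A/J against BALB/c, with 0.63, 0.98 and 1.30 RPKM in A/J and 1.75, 2.12 and 2.51 RPKM in BALB/c and a log2 change of -0.91 ± 0.19 (SE; limma, adjusted p = 0.0444). The median log2 change of those 26 genes was -0.03 in A/J and -0.09 in BALB/c against C57BL/6J, beside -0.01 over all genes in each.

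The 2 prefixed genes outside antigen presentation were not called in any comparison. H2-Ke2, the prefoldin subunit, ranged over 34.2 to 39.7 RPKM in A/J, 36.5 to 42.8 in BALB/c, against 31.6 to 40.8 in C57BL/6J. H2-Ke6, the dehydrogenase, ranged over 36.2 to 48.0 RPKM in A/J, 42.0 to 45.4 in BALB/c, against 37.1 to 52.4 in C57BL/6J. The strains overlapped in both genes, which lie in the H2 region with the class II genes. H2-Ke6 shares 72.2% of its 31-base words with the annotated gene Gm20427, so its level is uncertain. Their log2 changes against C57BL/6J were 0.13 (95% interval -0.22 to 0.49; limma, adjusted p = 0.599) for H2-Ke2 and 0.01 (95% interval -0.30 to 0.32; limma, adjusted p = 0.974) for H2-Ke6 in A/J. In BALB/c they were 0.31 (95% interval -0.05 to 0.67; limma, adjusted p = 0.446) for H2-Ke2 and 0.18 (95% interval -0.13 to 0.49; limma, adjusted p = 0.654) for H2-Ke6.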

How the data were processed

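RNA-seq of 9 whole-eye libraries was analysed. Per the submitters' processing notes, CASAVA 1.7, GenomeStudio and build mm9 were used. The authors deposited 1 table per library, whose unit no header names; the deposited values were taken as RPKM because value times transcript length gave about the total that RPKM gives. Depth is unknown.

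Each library was scaled by its size factor (median of ratios, 0.931 to 1.158) before log2(value + 0.5) was computed. Genes reaching 1 RPKM in at least 3 libraries (12920, with 169 left out) were fitted with limma 3.58.1 in R 4.3.3 (strain as the only term, all 9 libraries, trended and robust prior variance). The p-values are two-sided and were adjusted by Benjamini-Hochberg over all tested genes, with a threshold of 0.05. Adjusted p-values printed are limma's, from this fit unless another setting is named beside them. The code was tested on simulated data. As deposited, the median of all genes was shifted by -0.11 in A/J and -0.17 in BALB/c against C57BL/6J (log2).

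Members, lists and tests were chosen with earlier results of these data known. Values per library are given for every gene called, the classical class I genes, B2m and Cd74, and for up to 2 called genes of each other list by smallest adjusted p. Values of the other loading genes, H2-DMa, H2-M3, H2-Q8 and Krt12 were added after they were seen. GENCODE M21 (GRCm38) gave transcript length, GC content and shared 31-base words for 12894 genes (98.5%). Coding sequences were aligned with Biopython 1.88. Alternatives covered scaling, pseudocount, filter, GC content, replicate block, shared sequence, libraries left out and strains fitted in pairs.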

Additional observations from a re-analysis of the deposited data

How the results depend on the processing

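The alternatives were 21 other settings. Of 26 called results for single genes, 15 held in every setting that tested them and 18 in every fit without 1 library. Of 52 uncalled results, 15 gained a call in the same direction in at least 1 setting. All 15 did so without A/J 3 and C57BL/6J 3, where calls over all genes also multiplied, and some did so in other settings too. Leaving out 1 library moved the count of called genes over 9 to 12 in A/J against C57BL/6J, 6 to 11 in BALB/c against C57BL/6J, 3 to 8 in A/J against BALB/c and 10 to 14 for any strain difference. The BALB/c count against C57BL/6J was 6 without BALB/c 1 and 7 without BALB/c 2, BALB/c 3 or C57BL/6J 1. The A/J count against BALB/c was 8 without A/J 3 and 5 without C57BL/6J 3. Restricting the fit to genes with under 20% shared 31-base words left 6 calls in A/J against C57BL/6J, 4 in BALB/c against C57BL/6J and 6 for any strain difference. It left out H2-K1, H2-D1, H2-DMb1, H2-Q2, H2-Q6, H2-T10, H2-T22, H2-T23, Tapbp and H2-Ke6. Cd74, which stayed in, lost its call in BALB/c (log2 change -1.33, limma, adjusted p = 0.0581). A/J against BALB/c had 5 calls with quantile normalization, with a pseudocount of 1, with a GC correction, with a replicate block and GC correction together, and with these 2 strains fitted alone. It had 1 call without A/J 1 and A/J 2, a fit in which the 1 A/J library left was assumed to vary like the other strains, and 15 without A/J 3 and C57BL/6J 3, of which 4 were higher. Tap1 in BALB/c against C57BL/6J had no clear direction (log2 change -0.01, limma, adjusted p = 0.997). Its value was -0.27 to 0.44 without 1 library, and 0.44 (adjusted p = 0.0457) without A/J 3 and C57BL/6J 3, and the cause was not tested. With no filter, H2-Q8, which is in the tables only through A/J, added a call against C57BL/6J in both strains.

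With the replicate number as a block, the counts were 12 in A/J against C57BL/6J, 9 in BALB/c against C57BL/6J, 4 in A/J against BALB/c and 11 for any strain difference. Same-numbered libraries correlated in their deviations by 0.537, 0.00869 and 0.472 (A/J with C57BL/6J), 0.337, 0.0214 and 0.0923 (BALB/c with C57BL/6J) and 0.338, -0.515 and 0.243 (A/J with BALB/c). The numbers were therefore not taken as pairs. Libraries correlated best with their own number in 2, 2 and 1 of 3 cases. The depth is unknown, and genes under about 1 RPKM have the least certain values.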
